A study of Mus musculus with 6 samples.

Results

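The 29 genes described here belong to the machinery by which cells enclose and digest their own components: 14 encode lysosomal proteins, 13 encode proteins that build the autophagosome or select its cargo, and 2 encode transcription factors that act on both. They were taken by gene symbol from a table of 35485 genes that the authors deposited for each sample, and all 29 were found and passed the filter on low values. In autophagy, a double membrane forms around cytoplasm, organelles or protein aggregates, closes to an autophagosome and fuses with a lysosome, whose acid hydrolases break down the content. The closing membrane carries LC3 and GABARAP proteins joined to a lipid, and cargo receptors such as p62 bind both these proteins and ubiquitin-tagged cargo. Neurons of the retina, which do not divide, are known to depend on this turnover, and the transcription factors TFEB and TFE3 raise many lysosomal and autophagy genes together by binding the CLEAR element, a sequence built around an E-box.

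The samples were whole retinas of wild type male C57BL/6 mice, operated at 12 weeks of age and collected 2 days later. In the optic nerve crush (ONC) group the nerve was crushed, an injury to the axons that retinal ganglion cells (RGCs) send to the brain, and in the sham group the nerve was only exposed. Each group had 3 samples, and each sample was a pool of RNA from 6 retinas, so that p-values measure the spread between pools. The comparison asks how transcripts of the degradation machinery stand early after axonal injury.

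The libraries held 17343945 to 20358008 exon reads, of which a single member took 90 to 15990. Exons held 70.9% to 76.6% of the reads on genes in the sham samples and 78.5% to 80.4% in the ONC samples, with the lowest share in sham replicate 3. The deposited RPKM, a read count scaled by exon length and library size, is divided by all reads on genes, introns included. On the log2 scale the median gene stood 0.13 higher in ONC with the scaling of RPKM, 0.035 higher per sum of exon reads and 0.01 higher after TMM normalization of exon reads. Changes were therefore read from TMM-normalized exon reads, given as CPM (counts scaled to library size), with edgeR's quasi-likelihood test over 13670 genes, and RPKM was used only for levels. A gene was called at a Benjamini-Hochberg adjusted p under 0.1, and a differentially expressed gene (DEG) also changed more than 1.5-fold. Of all tested genes, 6.09% were called, 2.38% higher and 3.72% lower in ONC, and 1.66% were DEGs. Of 9 RGC markers, 8 fell (Slc17a6 rose), and their summed level was 432 to 451 RPKM in sham and 320 to 337 RPKM in ONC.

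After ONC, 3 of the 29 members rose and none fell. Sqstm1 encodes p62, the cargo receptor that joins ubiquitin-tagged proteins to LC3. Ctsl encodes cathepsin L, a cysteine protease of the lysosome, and Ctsh encodes cathepsin H, a lysosomal aminopeptidase. At an unadjusted p under 0.05 there were 10 members, of which 9 were higher and Ulk1 was lower in ONC, beside 16.7% of all genes, and the DESeq2 Wald test likewise called 3 members higher and 0 lower. The count of 3 among 29 stands beside 6.09% called over all genes and was not tested against it.

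Sequence upstream of the genes is shown for the 2 called members with an entry in RefSeq's table of promoters (GRCm38.p6) and for Ctsd, which was not called but holds the E-box more than once, so that the presence of the E-box can be set beside the changes. Capitals mark CACGTG, the E-box at the core of the CLEAR element, which reads the same on both strands. Each sequence is written 5′ to 3′ on the minus strand, where these 3 genes lie, and no base inside a gene's span in the deposited tables is printed.
Sqstm1, chr11:50210821-50211070: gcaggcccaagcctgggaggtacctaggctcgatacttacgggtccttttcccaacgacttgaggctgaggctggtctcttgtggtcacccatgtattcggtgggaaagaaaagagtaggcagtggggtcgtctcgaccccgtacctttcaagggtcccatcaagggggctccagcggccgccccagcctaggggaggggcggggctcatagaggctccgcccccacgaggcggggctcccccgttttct
Ctsl, chr13:64370521-64370770: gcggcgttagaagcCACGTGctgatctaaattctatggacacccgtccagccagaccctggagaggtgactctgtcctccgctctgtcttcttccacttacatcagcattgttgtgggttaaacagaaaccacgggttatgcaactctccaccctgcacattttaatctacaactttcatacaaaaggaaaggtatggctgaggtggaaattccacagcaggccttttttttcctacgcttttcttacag
Ctsd, chr7:142387871-142388077: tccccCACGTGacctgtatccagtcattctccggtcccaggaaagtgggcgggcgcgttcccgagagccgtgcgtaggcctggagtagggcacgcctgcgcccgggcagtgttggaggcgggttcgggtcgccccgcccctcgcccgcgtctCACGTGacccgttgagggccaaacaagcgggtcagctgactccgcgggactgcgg
The RefSeq start site of Ctsl lies 214 bases upstream of the start of the gene in the deposited tables, so the Ctsl window belongs to a different annotated start. The windows searched ran from 250 bases before to 50 bases after each start.

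Of the 23 members with a promoter in the table, 5 held CACGTG (Ctsd, Ctsl, Lamp1, Atg5 and Atg7), as did 8.09% of all genes in the table. Lamp1 held the motif 4 times, all within 61 bases before the start. The extended palindrome TCACGTGA, which contains CACGTG, was found in Ctsd alone among members and in 1.12% of all genes. The core of the antioxidant response element, TGACNNNGC on either strand, was found in Ctsd, Ctsz, Hexa, Psap and Map1lc3b and in 14% of all genes. The AP-1 site TGANTCA, which can overlap the antioxidant core, was found in Psap and Tfe3 and in 8.97% of all genes. Of the 5 members with an E-box, Ctsl was called and the other 4 were not, and the called member Sqstm1 held none of the 4 motifs in this window.

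Sqstm1 (chromosome 11, 50200152 to 50210790) was at 226, 218 and 210 CPM in sham replicates 1, 2 and 3. In ONC replicates 1, 2 and 3 it was at 333, 325 and 311 CPM. All 3 ONC samples lay far above all 3 sham samples. The fold was 1.48, with a log2 change of 0.57 (SE 0.06) and an adjusted p of 2.7e-06. After TMM normalization the fold was thus just short of the 1.5-fold that defines a DEG. Sqstm1 was called under all 18 alternative settings tried, at log2 changes of 0.54 to 0.69, the lowest without sham replicate 3.

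Ctsl (chromosome 13, 64363214 to 64370306) was at 130, 129 and 122 CPM in the sham samples and at 156, 164 and 158 CPM in the ONC samples. The groups did not overlap. The fold was 1.25, with a log2 change of 0.33 (SE 0.06) and an adjusted p of 0.0025. Ctsl was called under 17 of the 18 alternatives, the exception being a per-gene test on RPKM, with an adjusted p of 0.14, and without sham replicate 3 its log2 change was 0.30 (adjusted p = 0.037).

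Ctsh (chromosome 9, 90054267 to 90076095) was at 12.3, 8.19 and 10.8 CPM in the sham samples and at 13.5, 16.0 and 17.9 CPM in the ONC samples. The highest sham sample and the lowest ONC sample lay close together, and Ctsh was the member with the widest spread among those called. The fold was 1.52, with a log2 change of 0.60 (SE 0.16) and an adjusted p of 0.043. After TMM normalization Ctsh was thus the only DEG among the members. The call was lost when sham replicate 2, sham replicate 3, ONC replicate 2 or ONC replicate 3 was left out, with log2 changes of 0.45, 0.63, 0.59 and 0.50 and adjusted p-values of 0.24, 0.13, 0.13 and 0.22. It was also lost in the per-gene test on RPKM (adjusted p = 0.22).

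**Figure D1:**
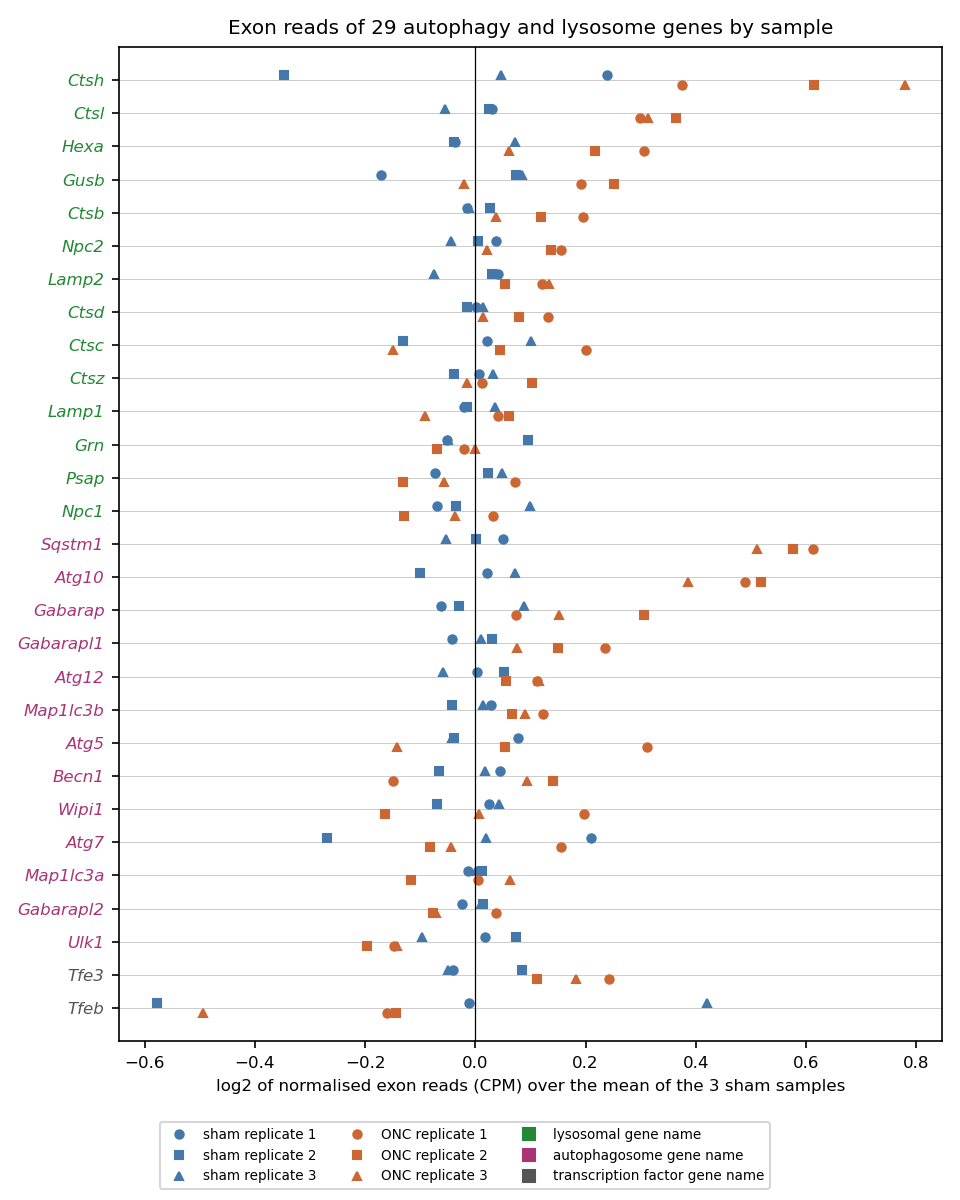
Normalized exon reads of the 29 members in each of the 6 samples, as the log2 of CPM over the mean of the 3 sham samples (horizontal axis), with a gene per line, grouped by role. Sqstm1, Ctsl and Ctsh have their 3 ONC points to the right of all sham points, while most other members have mixed points close to 0.

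Some markers of microglia and macrophages rose as Ctsh did. Of 13 listed markers, 12 passed the filter, 4 rose (C1qa, C1qb, C1qc and Itgam) and 8 were not called, beside 2.38% of all genes called higher, and the median log2 change over the 12 was 0.58. Among those not called, Aif1 had a log2 change of -0.32, Trem2 0.09 and Tmem119 0.23. The rest of those not called were Csf1r at 0.41, Cx3cr1 at 0.49, Fcer1g at 0.93, P2ry12 at 0.95 and Tyrobp at 0.96. The summed level of the 13 markers was 22.3 to 26.1 RPKM in the sham samples and 39.7 to 42.6 RPKM in the ONC samples. Ptprc was below the filter, and Aif1, Tmem119, Trem2 and P2ry12 were low in all 6 samples. The part of these cells in the rise of Ctsh was not tested. In RNA of whole tissue, a change in the number of cells of a type and a change in RNA per cell cannot be told apart.

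Of the other 4 cathepsins none was called by edgeR or DESeq2, and 1 had an unadjusted p under 0.05, beside 16.7% of all genes. Ctsb, a cysteine protease, had a log2 change of 0.12 (SE 0.06, adjusted p = 0.28), and Ctsd, the main aspartic protease of lysosomes, had 0.08 (SE 0.05, adjusted p = 0.52). Ctsz and Ctsc, the carboxypeptidase and the dipeptidyl peptidase of the family, had 0.03 and 0.04. The 3 ONC samples lay above the 3 sham samples for Ctsb and by the smallest of margins for Ctsd (353 CPM in the highest sham and 354 CPM in the lowest ONC sample), and they overlapped for Ctsz and Ctsc. Summed over the 6 cathepsins, the level was 303, 301 and 275 RPKM in sham and 352, 363 and 338 RPKM in ONC, so that all ONC sums lay above all sham sums. The ratio of the means was 1.198 in RPKM and 1.12 per total of exon reads. The called genes Ctsl and Ctsh are part of these sums. On RPKM, 25.4% of all genes had 3 ONC samples above 3 sham samples.

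Of the 8 other lysosomal members none was called by edgeR or DESeq2, and 1 had an unadjusted p under 0.05, beside 16.7% of all genes. Hexa, a subunit of beta-hexosaminidase, had a log2 change of 0.20 (SE 0.09, adjusted p = 0.27), and Gusb, beta-glucuronidase, had 0.15 (SE 0.17). Psap, the precursor of the saposins that help hydrolases act on sphingolipids, was the most abundant member. It was at 203, 217 and 202 RPKM in sham and 231, 211 and 217 RPKM in ONC, and the groups overlapped. Its log2 change was -0.04 (SE 0.06, adjusted p = 0.81) on exon reads, and 0.09 with the scaling of RPKM. Grn, which encodes progranulin, had -0.03, and the cholesterol exporters Npc1 and Npc2 had -0.04 and 0.11. The signs of Psap, Grn and Npc1 turn with the scaling of RPKM, so that no direction is given for them. The membrane glycoproteins Lamp1 and Lamp2 had log2 changes of 0.00 and 0.10.

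The LC3 and GABARAP family, which is joined to the growing membrane, was not called in any of its 5 members by edgeR or DESeq2. In this family, 2 had an unadjusted p under 0.05, beside 16.7% of all genes. Gabarapl1 had a log2 change of 0.15 (SE 0.06, adjusted p = 0.17) and Gabarap had 0.18 (SE 0.07, adjusted p = 0.21). Map1lc3b had 0.09, Map1lc3a had -0.01 and Gabarapl2 had -0.04, and the sign of the last 2 turns with the scaling of RPKM. Only 58.9% of the exon reads of Gabarapl2 and 80.1% of those of Map1lc3b mapped uniquely, so that reads shared with near copies enter both values. Summed over the family, the level was 448, 456 and 422 RPKM in sham and 508, 516 and 496 RPKM in ONC, a ratio of 1.15. Per total of exon reads the ratio was 1.07.

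Of the 7 genes that start and extend the autophagosome, none was called by edgeR or DESeq2. At an unadjusted p under 0.05 there were 2, beside 16.7% of all genes. Ulk1, the kinase that starts the process, was at 103, 107 and 95.4 CPM in sham and 92.1, 89.1 and 92.5 CPM in ONC, and was the only member whose 3 ONC samples lay below its 3 sham samples. Its log2 change was -0.16 (SE 0.07, adjusted p = 0.22). Atg10, the E2-like enzyme that joins Atg12 to Atg5, was at 7.96, 7.31 and 8.24 CPM in sham and 11.0, 11.2 and 10.3 CPM in ONC. Its groups did not overlap, and its log2 change was 0.47 (SE 0.16, adjusted p = 0.12). Becn1, a part of the lipid kinase complex, had a log2 change of 0.03, and 85.8% of its exon reads mapped uniquely. Atg5, Atg12 and the E1-like enzyme Atg7 had 0.09, 0.09 and 0.01, and Wipi1, which binds the lipid made by that complex, had 0.02.

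The transcription factors Tfe3 and Tfeb were not called by edgeR or DESeq2, and 1 had an unadjusted p under 0.05, beside 16.7% of all genes. Tfe3 was at 40.5, 44.2 and 40.3 CPM in sham and 49.3, 45.1 and 47.3 CPM in ONC, with a log2 change of 0.18 (SE 0.08, adjusted p = 0.29). Tfeb was the least abundant member. It was at 1.97, 1.33 and 2.43 RPKM in sham and 1.83, 1.95 and 1.49 RPKM in ONC. All 3 ONC values of Tfeb lay within the range of the sham values. Its log2 change was -0.26 (SE 0.23, adjusted p = 0.62), with a 95% interval of -0.74 to 0.23.

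Of the 26 members that were not called, 24 had a 95% interval of the change that lay within 1.5-fold in either direction. The exceptions were Atg10, whose interval reached 0.80 on the log2 scale, and Tfeb. The 3 ONC samples lay above the 3 sham samples in CPM for 11 members (Ctsb, Ctsd, Ctsh, Ctsl, Lamp2, Sqstm1, Map1lc3b, Gabarapl1, Atg10, Atg12 and Tfe3), and below them for Ulk1. Over all tested genes, 11% lay above and 10.8% lay below in this way. The members were more abundant than the tested genes as a whole, with a median sham level of 16.2 RPKM against 7.04 RPKM. On deposited RPKM, 17 members lay above and 0 below, where 25.4% of all genes lay above.

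**Figure D2:**
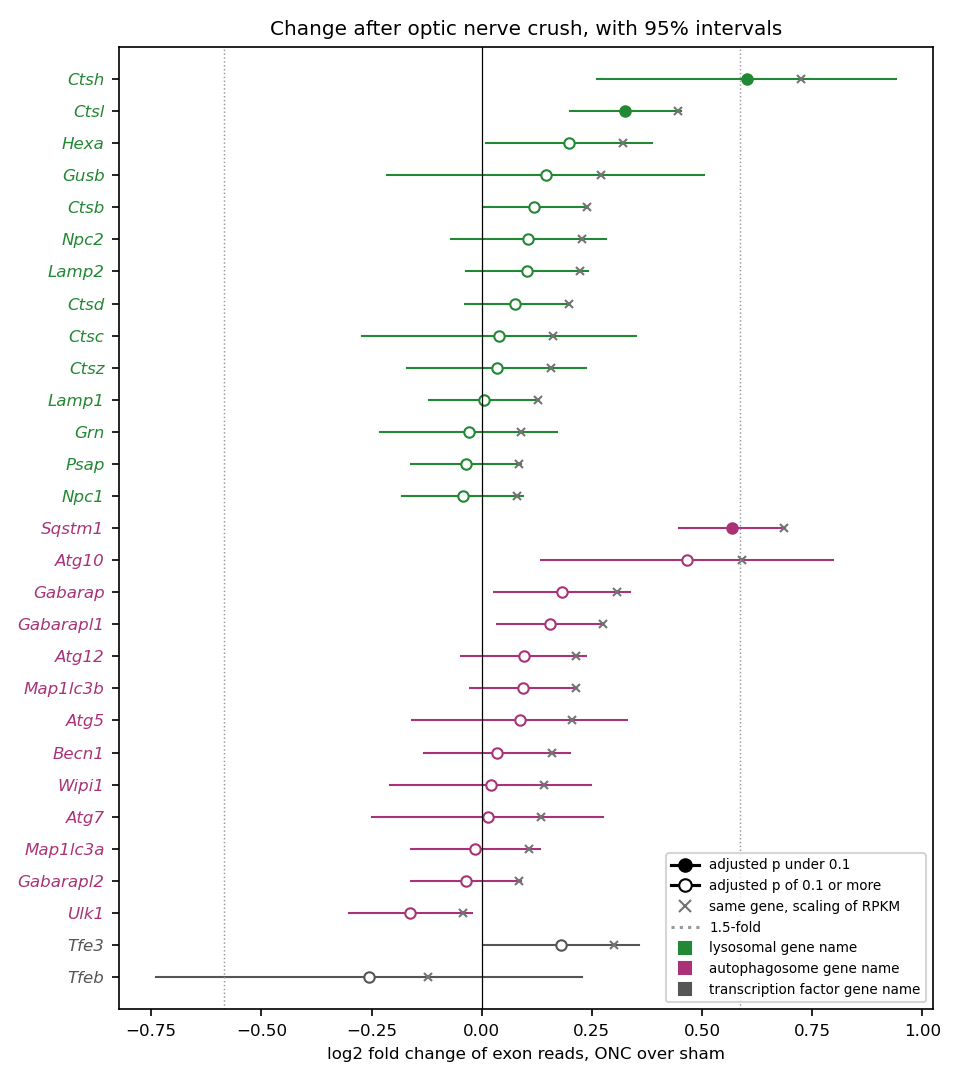
The log2 fold change of exon reads (ONC over sham, horizontal axis) of each member, with 95% intervals from edgeR as lines and filled points for an adjusted p under 0.1. Crosses give the same change with the scaling of RPKM, which lies to the right of every point, and the dotted lines mark 1.5-fold.

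On exon reads, the median log2 change was 0.09 for the 14 lysosomal members (range -0.04 to 0.60) and 0.09 for the 13 autophagosome members (range -0.16 to 0.57), beside 0.01 for all tested genes. Of the lysosomal members 2 rose and 12 were not called, and of the autophagosome members 1 rose and 12 were not called. These counts stand beside 2.38% of all genes called higher and were not tested against it. Leaving out sham replicate 2 or 3 or ONC replicate 2 or 3 left 1 lysosomal call, and leaving out ONC replicate 1 added Gabarap to the autophagosome calls. The summed level of the lysosomal members was 666, 679 and 628 RPKM in sham and 760, 757 and 722 RPKM in ONC, a ratio of 1.14. For the autophagosome members it was 633, 635 and 582 RPKM in sham and 742, 758 and 726 RPKM in ONC, a ratio of 1.203, or 1.14 without Sqstm1. Each sum was higher in all ONC samples than in all sham samples. The same held for all tested genes, which summed to 262996 to 283839 RPKM in sham and 296168 to 308670 RPKM in ONC. An exact permutation test of 3 against 3 cannot go below p = 0.1. Per total of exon reads the ratios were 1.06 for lysosomal and 1.12 for autophagosome members, and 1.07 for the latter without Sqstm1.

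With the scaling of RPKM in the same test, 11 members were called higher and 0 lower, where 11% of all genes were called higher. These were Ctsb, Ctsd, Ctsh, Ctsl, Hexa, Sqstm1, Map1lc3b, Gabarap, Gabarapl1, Atg10 and Tfe3. Of these, Sqstm1 (log2 change 0.69, adjusted p = 1.7e-08), Ctsh (0.72, adjusted p = 0.0057) and Atg10 (0.59, adjusted p = 0.038) also changed more than 1.5-fold. Over all genes that scaling called 1507 higher and 223 lower, against 325 higher and 508 lower after TMM normalization. The 8 members beyond Sqstm1, Ctsl and Ctsh were not called after TMM normalization.

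**Figure D3:**
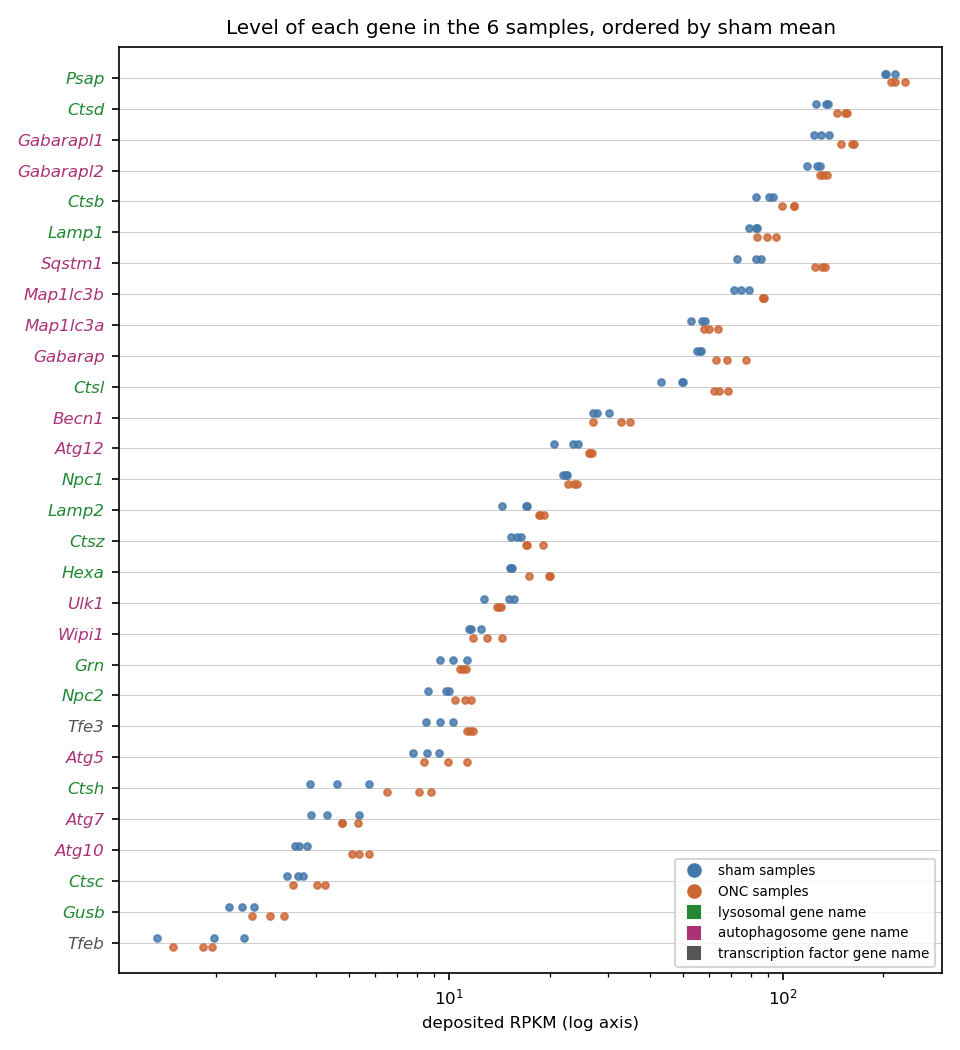
Deposited RPKM (log axis) of each member in the 3 sham and 3 ONC samples, ordered by the sham mean from Tfeb (1.91 RPKM) to Psap (207 RPKM). Sqstm1 moves from 80.5 to 130 RPKM between group means, past genes such as Ctsb that stand above it in sham, and most other pairs of groups lie close together.

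Levels per length set the members in a wide order in sham retina. Psap, at a mean of 207 RPKM (SD 8.34, n = 3), was followed by Ctsd at 132 RPKM (SD 5.79), Gabarapl1 at 130 RPKM (SD 6.72) and Gabarapl2 at 124 RPKM (SD 5.88), and the last 3 did not differ beyond their spread. Of the cathepsins, Ctsb and Ctsl stood at 88.9 and 47.7 RPKM in sham, Ctsz at 15.9 RPKM, and Ctsh and Ctsc at 4.73 and 3.48 RPKM. The called genes thus include an abundant receptor, an abundant protease and a protease that is among the lower members. Sqstm1 rose from 80.5 RPKM (SD 6.75) in sham to 130 RPKM (SD 4.73) in ONC. The enzymes Atg7 and Atg10 were low, at 4.52 and 3.59 RPKM in sham, while Atg12 was at 22.8 RPKM.

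Reads on introns can come from RNA not yet spliced, but their source was not tested here. Intron reads were fitted for 28 members, since Map1lc3a had at most 3 intron reads in any sample. No member was called by edgeR, where 2.88% of all genes tested on intron reads were, and 9 of the 28 members had an unadjusted p under 0.05, beside 17.4% of all genes. The DESeq2 Wald test called 2 members higher (Becn1 and Map1lc3b) and 1 lower (Atg10), beside 149 higher and 730 lower of 13317 genes. With the normalization factors of the exon reads, which put the median gene at -0.22, edgeR called 0 members higher and 3 lower (Atg10 at -1.15, Atg5 at -0.86 and Tfeb at -1.23). Over all 13317 genes, that setting called 24 higher and 1280 lower. Intron reads of a member ranged from 0 to 777 per sample, so that these changes carry larger errors than those of exon reads. Higher in ONC at an unadjusted p under 0.05 were Ctsl (log2 change 0.93, SE 0.37), Tfe3 (0.82, SE 0.31), Map1lc3b (0.71, SE 0.22), Ctsz (0.71, SE 0.27) and Becn1 (0.66, SE 0.19). Lower were Tfeb (-0.98, SE 0.35), Atg10 (-0.89, SE 0.26), Atg7 (-0.61, SE 0.26) and Atg5 (-0.58, SE 0.25). The adjusted p-values of these 9 genes were 0.11 to 0.24. The lower genes, Tfeb, Atg10, Atg7 and Atg5, had the longest spans among the members. The part of gene length in this was not tested. Sqstm1 and Ctsh had intron changes of 0.40 (SE 0.27) and 0.62 (SE 0.37).

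Atg10 had the widest gap between exon and intron reads. Its introns held 174, 155 and 267 reads in sham and 106, 71 and 136 reads in ONC, with sham replicate 3 highest, while its exon reads were higher in all ONC samples. Intron reads made 59.1% of the reads on Atg10 in sham and 32.1% in ONC. The exon change minus the intron change was 1.34 (SE 0.32, unadjusted p = 0.0010, adjusted p = 0.17). Without sham replicate 3, the intron change was -0.67 (adjusted p = 0.33) and the exon change 0.50. On total gene reads, exons and introns together, the change of Atg10 was -0.22. No member was called on the exon minus intron change, where 0.0353% of all genes were, and 9 members had an unadjusted p under 0.05, beside 13.6% of all genes.

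**Figure D4:**
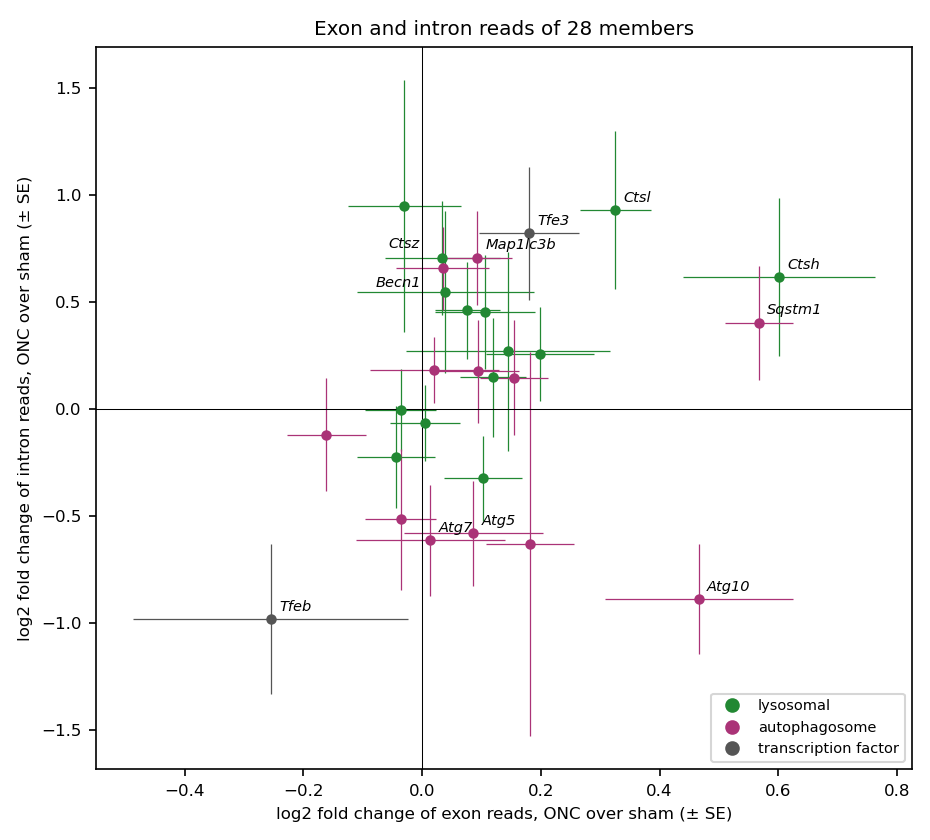
Log2 fold change of exon reads (horizontal axis) against that of intron reads (vertical axis) for 28 members, ONC over sham, with bars of 1 SE. Atg10 lies to the lower right, with 0.47 on exons and -0.89 on introns, and Ctsl, Ctsh and Sqstm1 lie to the upper right.

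Other genes of the same pathways, from lists that share no gene with the members, were counted by the same rule, and their counts stand beside 2.38% called higher and 3.72% called lower over all genes, against which they were not tested. Of 32 other lysosomal hydrolases, 2 rose and 0 fell, among them Ctss, a cathepsin abundant in macrophages (log2 change 0.49, adjusted p = 0.063). Of 21 other lysosomal membrane and accessory proteins, 2 rose and 0 fell. Cd63 was at 51.3, 52.4 and 53.7 CPM in sham and 62.3, 73.8 and 62.2 CPM in ONC (log2 change 0.33, adjusted p = 0.024). Cd68, a lysosomal glycoprotein and macrophage marker, had 26, 16 and 10 exon reads in sham and 24, 63 and 85 in ONC (2.82-fold, adjusted p = 0.091), and its groups overlapped. The proton pump that acidifies lysosomes gave 17 tested subunits with a median log2 change of 0.00, of which 1 fell (Atp6v1g2, log2 change -0.31, adjusted p = 0.0064) and none rose.

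Of 30 other genes of the autophagosome machinery, 2 rose and none fell, beside 6.09% called over all genes. Atg16l2, a relative of the protein that directs LC3 to the membrane, was at 4.93, 4.45 and 4.65 CPM in sham and 7.42, 8.40 and 7.65 CPM in ONC (log2 change 0.74, adjusted p = 0.037). Atg16l1, that protein, had a log2 change of 0.30 (adjusted p = 0.065). Of 11 other autophagy receptors none rose and Bnip3, a receptor for mitochondria, fell (log2 change -0.22, adjusted p = 0.076). Median log2 changes were 0.11 for the hydrolases, 0.10 for the membrane and accessory proteins, 0.02 for the autophagosome machinery and 0.00 for the receptors, beside 0.01 for all genes. Mitf, a relative of Tfeb, was not called, and Tfec did not pass the filter on low values.

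**Figure D5:**
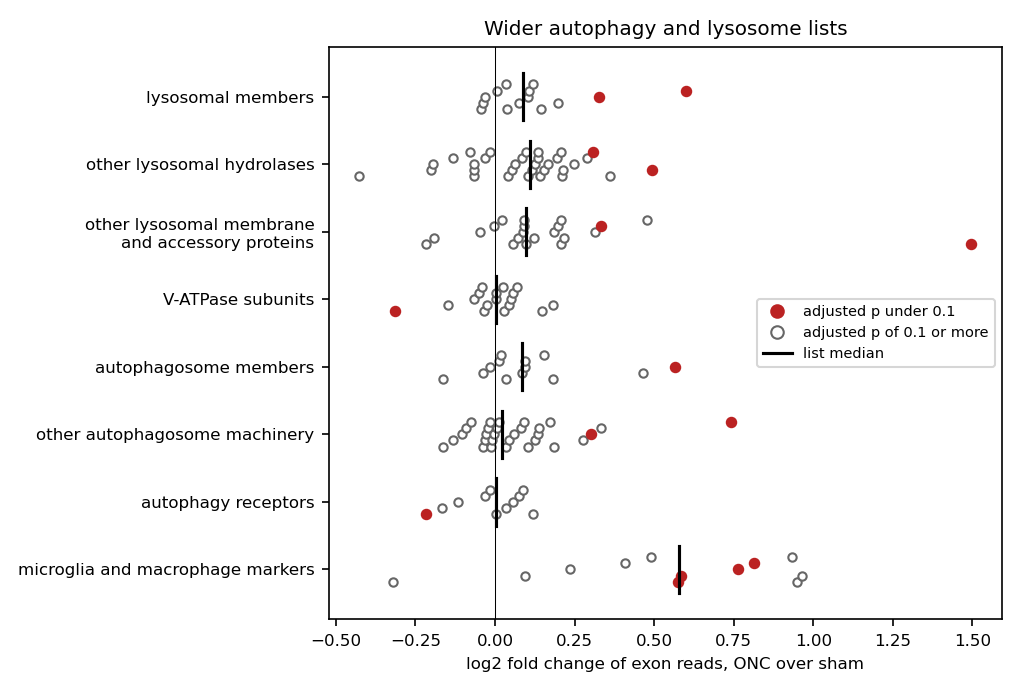
Log2 fold change of exon reads (ONC over sham, horizontal axis) of each tested gene in 8 lists, with filled points for an adjusted p under 0.1 and a bar at the list's median. The medians of the lysosome and autophagosome lists lie between 0.00 and 0.11, and that of the microglia and macrophage markers lies at 0.58.

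Some members share their span with another gene, and the library kit did not mark strand, so reads of the partners cannot be told apart. This holds for 7 members: Ctsb, Ctsz, Npc1, Gabarapl1, Becn1, Atg5 and Atg7. None of them was called by edgeR on TMM-normalized exon reads. Ctsz, Becn1, Atg5 and Atg7 are among the members with an unadjusted p under 0.05 on intron reads, and Becn1, Atg5 and Atg7 were called there in some alternative settings.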

How the data were processed

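RNA-seq of whole retinas was analysed from 3 ONC and 3 sham pools. The authors mapped reads with CLC Genomics Workbench and deposited, per gene, counts of exon reads and of total gene reads, without normalization, and RPKM values divided by all reads on genes. The build named is mm9, while the deposited positions overlap those of RefSeq GRCm38.p6 for 99.9% of 29908 matched symbols. The 29 members and all lists were chosen with earlier results of these data known. Genes with a mean RPKM above 0.3 in a group (13670) were fitted with edgeR 4.0.16 (TMM, glmQLFit, glmQLFTest) in R 4.3.3 on condition alone, with Benjamini-Hochberg adjustment over all of them. Intron reads (total gene reads minus exon reads, at least 10 on average, 13317 genes) were fitted in the same way. Alternatives were DESeq2 1.42.0, limma 3.58.1 on log2 RPKM with pseudocounts of 0.1 and 1, other scalings and filters, unique reads, the replicate number as a block, and leaving out each sample. Added after seeing the data were unique intron reads and the exon minus intron comparison. All 29 members are named. Per-sample values are given for called members and the highest and lowest by RPKM, and others shown per sample were chosen after their values were seen. Of other lists, called genes are named, except 1 that is not reported here. Procedures were tested on simulated data.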

Additional observations from a re-analysis of the deposited data

How the results depend on the processing

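Over 18 alternatives, Sqstm1 remained called in 18, Ctsl in 17 and Ctsh in 13. Members called on exon reads were 11 with the scaling of RPKM (5 lysosomal, 5 autophagosome), 9 and 10 with limma at pseudocounts of 0.1 and 1 (4 and 5 lysosomal, 5 autophagosome in each) and 1 with the per-gene test on RPKM (0 lysosomal). With the sum of exon reads, 2 autophagosome members were called. Leaving out 1 sample gave 2 to 4 members. The lysosomal count was 1 to 2, with 1 when sham replicate 2 or 3 or ONC replicate 2 or 3 was left out, and the autophagosome count was 1 to 2, with 2 without ONC replicate 1. Over all 13670 genes the count was 1730 (1507 higher) with the scaling of RPKM and 101 (75 higher) with the per-gene test. With limma at pseudocounts of 0.1 and 1 it was 1121 and 1158 (978 and 1011 higher), and with the sum of exon reads 841 (399 higher). When 1 sample was left out, the count was lowest, 373, without sham replicate 2 and highest, 2049, without ONC replicate 1, with 397, 435 and 454 without sham replicate 3, ONC replicate 2 and ONC replicate 3. On intron reads the members called were 3 lower and 0 higher with the factors of the exon reads (Atg10, Atg5 and Tfeb), 2 with at least 50 reads (Becn1 higher, Atg10 lower) and 3 with DESeq2, and ran from 0 to 3 when 1 sample was left out, with 3 without sham replicate 1 and 1 without ONC replicate 1. Over all 13317 genes, the intron count was 1304 (24 higher) with the factors of the exon reads and 879 (149 higher) with DESeq2. With at least 50 reads it was 517 of 9176 genes (105 higher). When 1 sample was left out, the intron count over all genes ran from 0 without sham replicate 2 or ONC replicate 2 to 907 without sham replicate 1. It was 92 and 1 without sham replicate 3 and ONC replicate 3. The exon minus intron count over all genes ran from 0 to 27, the latter without sham replicate 1. Per total of exon reads, the summed ratios were 1.06 (lysosomal) and 1.12 (autophagosome), and the autophagosome ratio in RPKM ran from 1.17, without sham replicate 3, to 1.22. The replicate numbers showed no sign of pairing the samples (correlations of deviations -0.047, -0.033 and 0.0026), which does not exclude a shared batch. With the replicate block, Atg10 was called lower on intron reads (log2 change -0.90, adjusted p = 0.084), 3 members were called on exon reads, and no other call of a member changed.

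Most members that changed sign were near 0, but Atg10 (log2 change 0.47) and Tfeb (-0.26) were not. Under the scaling of RPKM, limma at pseudocounts of 0.1 and 1 and the per-gene test, in that order, the log2 changes were 0.090, 0.093, 0.086 and 0.090 for Grn, 0.080, 0.079, 0.076 and 0.080 for Npc1, 0.085, 0.085, 0.085 and 0.085 for Psap, 0.11, 0.11, 0.10 and 0.11 for Map1lc3a, and 0.085, 0.086, 0.085 and 0.085 for Gabarapl2. Total gene reads gave 0.034 for Grn, 0.0056 for Psap, 0.029 for Map1lc3a, -0.071 for Atg5, -0.13 for Atg7 and -0.22 for Atg10. Map1lc3a had 0.011 with the sum of exon reads, and Becn1 -0.014 with unique exon reads. Leaving out 1 sample turned the sign of Ctsc (-0.049 to 0.12), Ctsz (-0.0067 to 0.053), Lamp1 (-0.029 to 0.046), Grn (-0.059 to 0.021), Npc1 (-0.083 to 0.0091), Psap (-0.094 to 0.0044), Map1lc3a (-0.059 to 0.029), Becn1 (-0.027 to 0.12), Atg5 (-0.042 to 0.18), Atg7 (-0.10 to 0.13), Wipi1 (-0.076 to 0.099) and Tfeb (-0.48 to 0.011). The cause of these differences was not tested.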
